A study of Mus musculus with 14 samples.

Results

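The DNA replication genes are 48 genes taken by symbol from the table of estimated counts per gene, which holds 24015 rows, in all 14 libraries. All 48 were in the table and all 48 passed the filter on low counts, which left 15666 genes for testing. The lowest count of any of them in any library was 117. The cells were mouse embryonic fibroblasts, cells of the connective tissue kept in primary culture, of strain 129s2, from embryos of day 14.5 and at passages 3 to 4. They spent 18 hours in normal medium (NT, labelled as no treatment) or in medium without glucose (GS). Wild-type cells make up 4 libraries in normal medium (WT-NT, n = 4) and 3 without glucose (WT-GS, n = 3). SirT7-/- cells make up 4 libraries in normal medium (KO-NT, n = 4) and 3 without glucose (KO-GS, n = 3), so that there are 4 groups. SirT7 is a sirtuin, an enzyme that uses NAD and acts on chromatin, and it is absent by genotype in the SirT7-/- cells. The labels do not say whether the replicates of a group are separate cultures or embryos, so p-values measure the spread between these libraries, which may be technical.

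A cell copies its genome once per division. In G1 phase the origin recognition complex, with Cdc6 and Cdt1, loads the ring-shaped Mcm2-7 helicase onto origins, a step called licensing. In S phase Cdc45 and the GINS complex join the helicase and activate it, and primase and the DNA polymerases build the new strands, held to DNA by the PCNA clamp. Many of these genes are targets of the E2F transcription factors, which act when a cell commits to S phase, whereas genes of G2 phase and mitosis are largely controlled through another promoter element, the CHR. Replication genes are therefore widely used as a readout of dividing cells. In RNA from bulk cultures, fewer cells in S phase and less RNA per cell cannot be told apart.

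Total counts per library ran from 59788270 to 91607861. Levels are given as CPM, the usual unit that divides each count by its library's total, and they are compared between libraries and not between genes, because the table holds no gene lengths. Sirt7 was at 0.301 to 1.41 CPM in the 7 SirT7-/- libraries and at 16.9 to 23.1 CPM in the wild-type libraries. All 14 listed fibroblast markers had a mean of at least 1 CPM over all libraries, while the erythroid globin genes Hbb-bt, Hbb-y, Hbb-bh1 and Hba-a1, the muscle gene Ckm and the epithelial keratin Krt5 were at 0 in every library. Of the muscle markers 5 of 15 had a mean of at least 1 CPM, as had 4 of 10 epithelial, 4 of 10 endothelial and 0 of 8 erythroid markers. Over the libraries, summed muscle markers were at 84.4 to 250 CPM and summed epithelial markers at 4.40 to 13.4 CPM. All 15 macrophage markers in the table had a mean of at least 1 CPM, and their summed level was 329 to 2187 CPM in WT-NT, 14.1 to 381 CPM in WT-GS, 423 to 768 CPM in KO-NT and 121 to 1160 CPM in KO-GS. The summed fibroblast markers moved with the medium in wild type, with 46873 to 54169 CPM in WT-NT and 26650 to 28419 CPM in WT-GS. By the test used below 8 of the 14 fell and 0 rose, where 15.4% of all genes tested were called lower and 17.2% higher. Summed neural markers were at 81.1 to 179 CPM in WT-NT and 218 to 367 CPM in WT-GS. In SirT7-/- cells the fibroblast sum was 30253 to 54290 CPM in KO-NT and 28279 to 46946 CPM in KO-GS. The part of these markers in the results was not tested. In the RefSeq annotation Orc1, Mcm7, Gins2, Pold1, Pold2, Pole2, Rfc4, Rpa1, Fen1, Tk1, Ccne2, E2f1 and Chaf1a overlap another gene of the table, and the strand setting of the counting is not stated, so reads from shared stretches cannot be told apart.

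Not all libraries lay where their labels put them. A position was computed for each library along 4999 genes called between WT-GS and WT-NT, none of them on any gene list used here, scaled so that WT-NT averages 0 and WT-GS averages 1. The library labelled KO-NT 4 lay at 0.883, beside KO-GS 1 and 2 at 0.915 and 0.905, and the library labelled KO-GS 3 lay at 0.152. KO-NT 1 to 3 lay between -0.0485 and 0.0113. WT-NT 4 lay at 0.105, against -0.0625 to 0.00397 in WT-NT 1 to 3. Hspa5, a chaperone of the endoplasmic reticulum induced by loss of glucose, was at 6333 CPM in the library labelled KO-NT 4 and 1066 CPM in the library labelled KO-GS 3. Txnip, which is induced by glucose, was at 5.53 and 118 CPM in them. Groups are used as labelled unless stated, and results that rest on these libraries are given with and without them.

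The first comparison asks how the replication genes of wild-type cells differ after 18 hours without glucose. Of the 48 genes, 17 fell and 0 rose in WT-GS against WT-NT (edgeR quasi-likelihood test, Benjamini-Hochberg adjusted p under 0.05 over all 15666 genes). That is 35.4% of them called lower, where 15.4% of all genes tested were called lower and 17.2% higher, 32.6% in all. Their median log2 change was -0.42, against -0.02 over all genes tested, and the change was negative for 42 of the 48. The 17 were Orc1, Mcm2, Mcm3, Mcm4 and Mcm5 of licensing, Pola2 of the polymerases, Pcna, Rfc2 and Rpa1 of the clamp and single-strand group, Fen1 and Lig1 of lagging-strand processing, Tyms, Tk1 and Rrm1 of nucleotide supply, Ccne1, Uhrf1 and Chaf1a. In 21 of the 48 every WT-GS library lay below every WT-NT library, or 43.8%, against 24.8% of all genes tested. In 1 of the 48, Cdc6, every WT-GS library lay above, or 2.08%, against 19.9% of all genes tested.

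**Figure D1:**
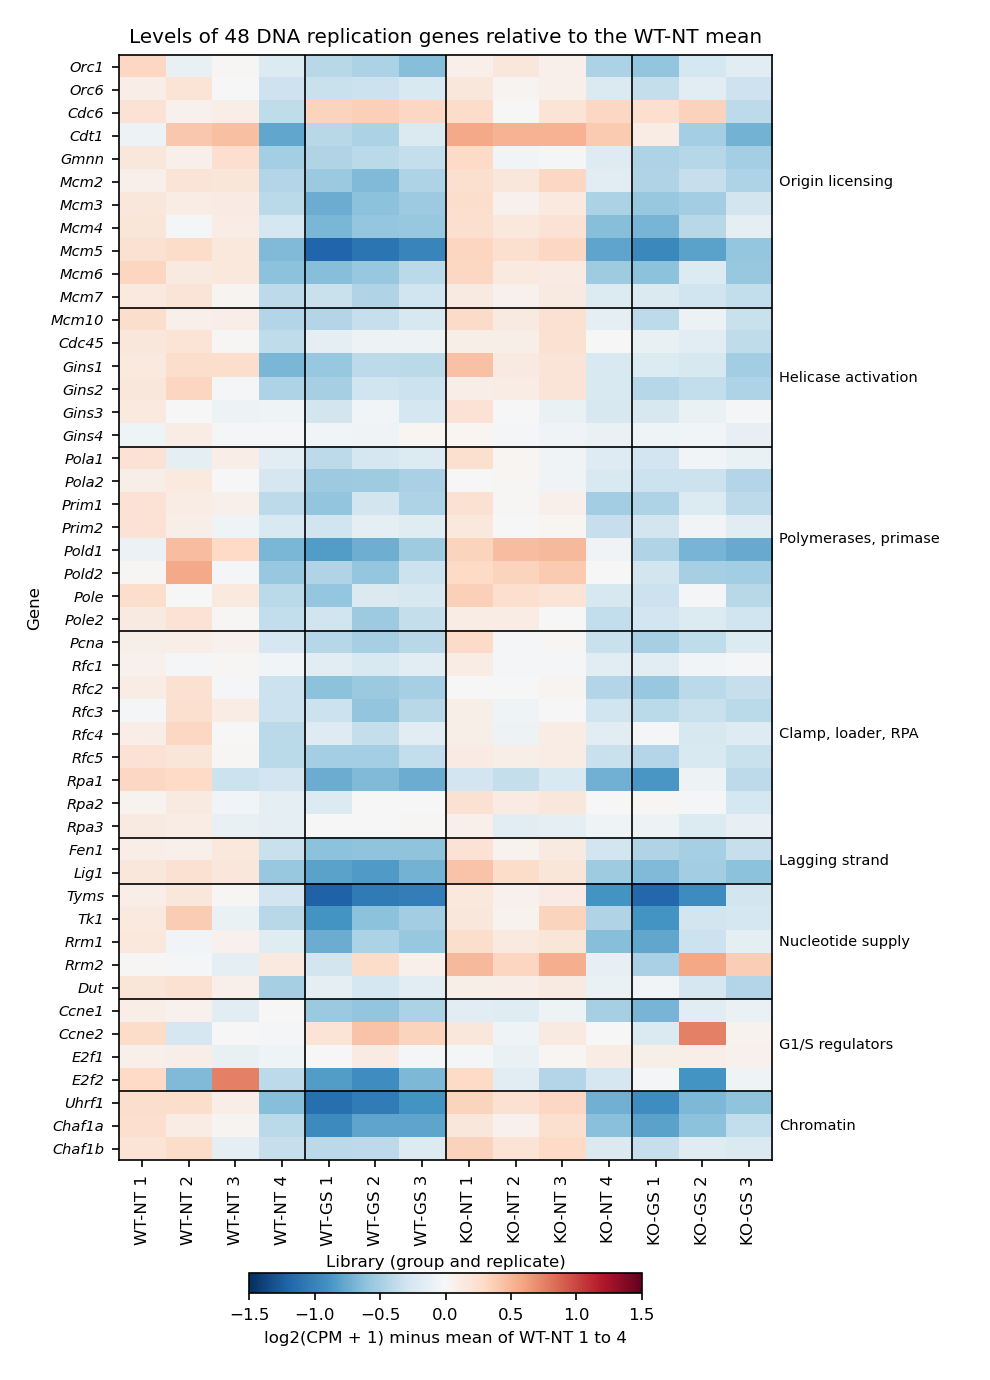
Heat map of the 48 genes (rows, ordered by role) in the 14 libraries (columns, ordered by group and replicate). Colour is log2(CPM + 1) minus the mean of the 4 WT-NT libraries, blue for lower and red for higher. The 3 WT-GS columns are mostly blue, and WT-NT 4, in normal medium, is blue in most rows too.

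The size of this count rested on WT-NT 4. Without that library 36 of the 48 were called lower and 0 higher, with 21.2% of all genes tested called lower, and the median log2 change of the 48 was -0.57. All of the first 17 were among the 36. Leaving out another library lowered the count, to 8 without WT-NT 1, 13 without WT-NT 2, 10 without WT-NT 3, 3 without WT-GS 1, 8 without WT-GS 2 and 8 without WT-GS 3. The count over all genes tested moved too. Called in either direction were 5107 with every library kept, and 3742, 5239, 3814, 2823, 3344 and 2790 in the same order. Tyms, Chaf1a and Ccne1 were called lower under all 18 settings tried, the main one included. Against WT-NT 1 to 3 alone, a choice made after the values were seen, 40 of the 48 lay lower in every WT-GS library, or 83.3%, against 30.3% of all genes tested, and Cdc6 alone lay higher, or 2.08%, against 27.5%.

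**Figure D2:**
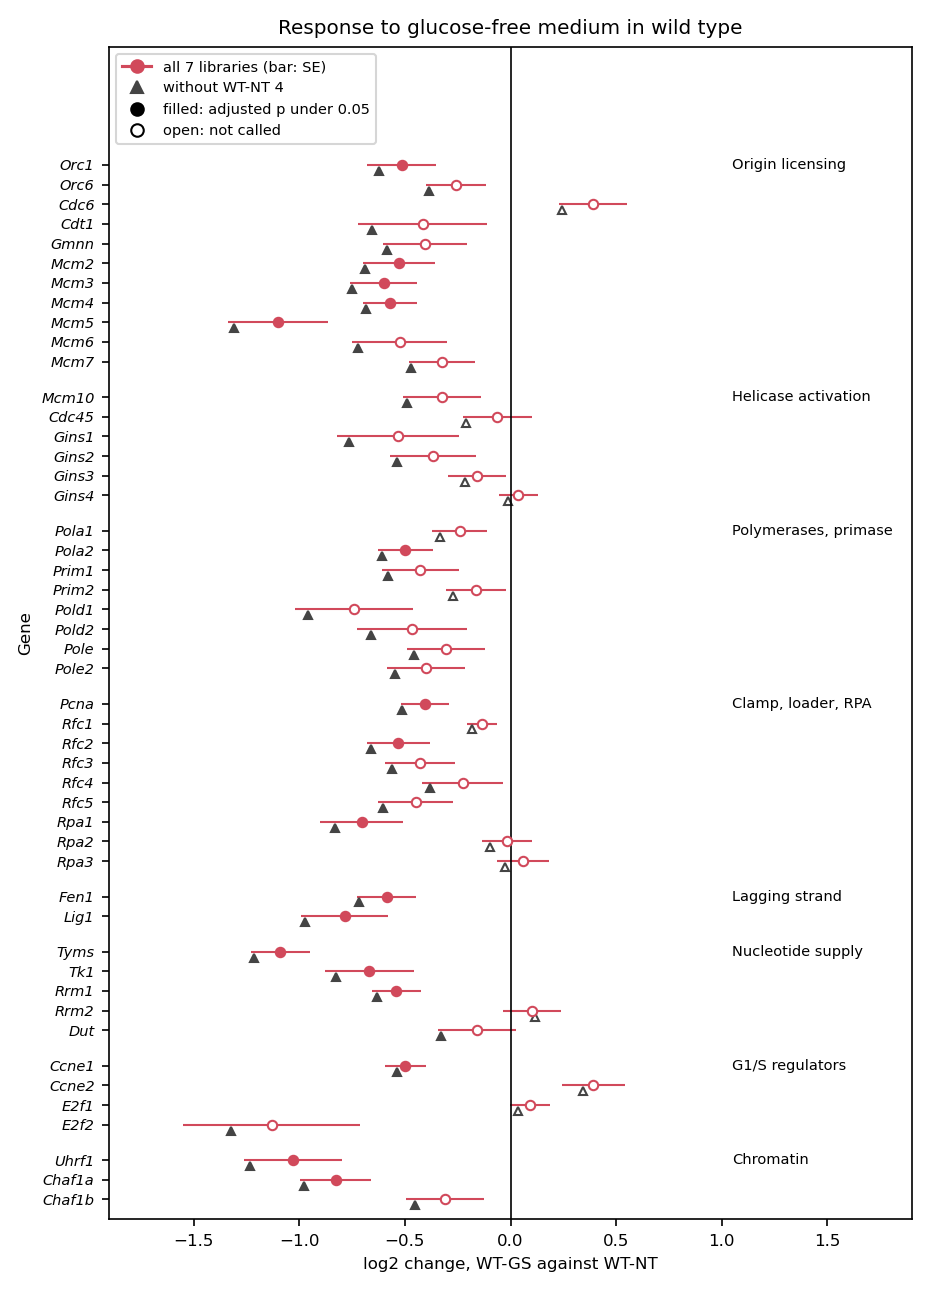
Log2 change of each of the 48 genes in WT-GS against WT-NT (horizontal axis; bars are 1 SE from the fit on 7 libraries), with the change without WT-NT 4 as triangles. Filled symbols passed an adjusted p of 0.05; 17 circles and 36 triangles are filled, all to the left of 0.

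The promoters of these genes were read for the words that E2F factors and the CHR element are known by. The sequences come from RefSeq, on build GRCm38.p6, in windows from 250 bases before to 50 bases after the annotated start. The submitters' processing notes name build mm9, so these coordinates are not those of the counted reads. A window was found for 39 of the 48. The E2F words searched, on both strands, were TTTCCCGC, TTTCGCGC, TTTGCCGC and TTTGGCGC. One or more of them stood in the windows of 15 of the 39 genes, or 38.5%, against 704 of 27025 genes with a window, or 2.6%, and 500 of the 11479 genes tested that have one, or 4.36%. Among the licensing genes it was 7 of 9. The share did not separate the genes by response: 5 of 15 called lower in WT-GS held a word and 10 of 24 not called.

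The stretches below are printed because they show what that class of promoter looks like. They lie upstream of the start in genes whose levels or log2 changes are given next. Each is 60 bases, with E2F words in capitals. In Mcm5 and in Mcm6, 2 words on opposite strands overlap and are printed as 1 run of capitals.
Mcm5, chr8:75109332-75109391, plus strand: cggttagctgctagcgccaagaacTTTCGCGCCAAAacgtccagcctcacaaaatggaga
Mcm6, chr1:128359782-128359841, minus strand: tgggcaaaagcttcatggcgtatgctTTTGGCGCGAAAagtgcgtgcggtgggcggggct
Gins3, chr8:95633492-95633551, plus strand: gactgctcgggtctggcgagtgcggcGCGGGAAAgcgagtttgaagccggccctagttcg
Rfc3, chr5:151651209-151651268, minus strand: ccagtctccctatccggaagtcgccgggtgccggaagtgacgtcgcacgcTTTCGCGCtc
For contrast, promoters of 2 genes of the G2 and M phase list follow, with the CHR word TTTGAA in capitals. The Gins3 stretch above also holds this word, left in lower case there. Mki67 encodes the Ki-67 proliferation marker and Cdc20 an activator of the anaphase-promoting complex.
Mki67, chr7:135716454-135716513, minus strand: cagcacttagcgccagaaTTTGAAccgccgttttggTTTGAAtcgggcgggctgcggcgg
Cdc20, chr4:118437344-118437403, minus strand: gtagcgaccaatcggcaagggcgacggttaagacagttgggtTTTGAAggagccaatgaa
No E2F word was found in the 28 windows of the 26 genes on the G2 and M phase list that have one, and the CHR word was found, on either strand, in 19 of the 26 genes, or 73.1%. It was found in 6 of the 39 replication genes, or 15.4%, in 20.2% of all 27025 genes and in 14.4% of the genes tested that have a window. The word CCAAT, the site of NF-Y, stood in 61.5% of the replication genes, 76.9% of that list and 41.1% of all genes. A match is a description of letters in a window, not a bound site.

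Of the 11 licensing genes, 5 fell in WT-GS, and Mcm5 fell most among them. Mcm5, a subunit of the Mcm2-7 helicase, was at 100.3, 103, 95.3 and 53.3 CPM in WT-NT 1 to 4 and at 36.7, 39.4 and 42.6 CPM in WT-GS 1 to 3. The groups did not overlap, and WT-NT 4 lay far nearer to WT-GS than to the other WT-NT libraries. The log2 change was -1.10 ± 0.24 (SE, adjusted p = 0.0113). The other helicase subunits were lower by less: Mcm4 changed by -0.57 ± 0.13 (SE, adjusted p = 0.0123), Mcm3 by -0.60 ± 0.16 (SE, adjusted p = 0.0246) and Mcm2 by -0.53 ± 0.17 (SE, adjusted p = 0.0488). Orc1, the large subunit of the origin recognition complex, changed by -0.51 ± 0.16 (SE, adjusted p = 0.0456), with a mean of 12.6 ± 2.20 CPM (SD, n = 4) in WT-NT and 8.48 ± 0.736 CPM (SD, n = 3) in WT-GS.

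Mcm6 and Mcm7 did not pass the test with all 7 libraries and did without WT-NT 4. Mcm6 was at 106, 92.6, 94.3 and 54.4 CPM in WT-NT 1 to 4 and at 53.7, 56.6 and 63.6 CPM in WT-GS 1 to 3, so that WT-NT 4 lay within the range of WT-GS. Its log2 change was -0.53 ± 0.22 (SE, adjusted p = 0.107) with all libraries and -0.72 ± 0.10 (SE, adjusted p = 0.00169) without WT-NT 4. Mcm7 changed by -0.32 ± 0.16 (SE, adjusted p = 0.148) with all libraries and by -0.47 ± 0.08 (SE, adjusted p = 0.00375) without it. The genes that overlap Mcm7 are Ap4m1 and 3 microRNA genes.

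Neither loading factor passed the test with all 7 libraries. Cdc6, which recruits the helicase to origins, was at 20.7, 18.4, 18.9 and 13.3 CPM in WT-NT 1 to 4 and at 22.5, 22.9 and 22.1 CPM in WT-GS 1 to 3. All WT-GS libraries lay above all WT-NT libraries, but the change did not pass the test, at a log2 change of 0.39 ± 0.16 (SE, adjusted p = 0.0957). Cdt1, which brings in the helicase with Cdc6, was at 16.9, 24.0, 24.7 and 10.02 CPM in WT-NT and at 13.1, 12.6 and 15.2 CPM in WT-GS. WT-NT 4 had the lowest Cdt1 of these 7 libraries, and the change of -0.42 ± 0.31 (SE, adjusted p = 0.322) became -0.65 ± 0.17 (SE, adjusted p = 0.0196) without it. Geminin (Gmnn), the inhibitor of Cdt1, likewise changed by -0.40 ± 0.20 (SE, adjusted p = 0.153) with all libraries and by -0.58 ± 0.09 (SE, adjusted p = 0.00318) without WT-NT 4. Orc6 changed by -0.26 ± 0.14 (SE, adjusted p = 0.197) with all libraries and by -0.38 ± 0.09 (SE, adjusted p = 0.012) without WT-NT 4.

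None of the 6 helicase-activation genes passed the test in WT-GS against WT-NT with all libraries, and 3 did without WT-NT 4. Gins1, a GINS subunit, was at 7.51, 8.25, 8.23 and 3.78 CPM in WT-NT 1 to 4 and at 4.17, 4.87 and 4.82 CPM in WT-GS 1 to 3. WT-NT 4 was below every WT-GS library, and the log2 change went from -0.53 ± 0.29 (SE, adjusted p = 0.19) to -0.77 ± 0.13 (SE, adjusted p = 0.0043) when it was left out. Gins2 changed by -0.54 ± 0.12 (SE, adjusted p = 0.0127) and Mcm10, which promotes helicase activation, by -0.49 ± 0.10 (SE, adjusted p = 0.00992) without WT-NT 4. The remaining 3 passed in neither fit. Cdc45, the helicase cofactor, was at 27.4, 28.01, 24.5 and 18.3 CPM in WT-NT and at 21.9, 22.9 and 22.9 CPM in WT-GS, a change of -0.06 ± 0.16 (SE, adjusted p = 0.789). Gins4 was at 26.0 ± 1.54 CPM (SD, n = 4) in WT-NT and 25.6 ± 0.878 CPM (SD, n = 3) in WT-GS, and its change was 0.04 ± 0.09 (SE, adjusted p = 0.783), with a sign that turned under 4 of the alternatives. Gins3 changed by -0.16 ± 0.14 (SE, adjusted p = 0.398).

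Of the 8 polymerase and primase genes, 1 fell with all libraries, Pola2, and 6 without WT-NT 4. Pola2, the regulatory subunit of polymerase alpha, was at 28.2, 29.4, 26.6 and 22.0 CPM in WT-NT and at 17.8, 18.0 and 18.5 CPM in WT-GS, with no overlap, and its log2 change was -0.50 ± 0.13 (SE, adjusted p = 0.0222). Pold1, the catalytic subunit of polymerase delta, was at 23.3, 34.7, 30.8 and 15.1 CPM in WT-NT 1 to 4 and at 13.5, 14.6 and 16.8 CPM in WT-GS. The WT-NT values were widely spread, and the change of -0.74 ± 0.28 (SE, adjusted p = 0.0779) did not pass the test. Without WT-NT 4 it was -0.96 ± 0.17 (SE, adjusted p = 0.00462). Pold2, the second delta subunit, changed by -0.66 ± 0.18 (SE, adjusted p = 0.0236), Prim1, the catalytic primase subunit, by -0.58 ± 0.11 (SE, adjusted p = 0.00687), Pole, the catalytic subunit of polymerase epsilon, by -0.46 ± 0.13 (SE, adjusted p = 0.0261) and Pole2 by -0.55 ± 0.12 (SE, adjusted p = 0.0112) without WT-NT 4. Pold2 overlaps the abundant gene Aebp1 in the annotation. Pola1 and Prim2 passed in neither fit, at -0.24 ± 0.13 (SE, adjusted p = 0.182) and -0.16 ± 0.14 (SE, adjusted p = 0.395) with all libraries.

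Among the 9 genes of the clamp, the clamp loader and the single-strand binding protein RPA, Pcna, Rfc2 and Rpa1 fell. Pcna, the sliding clamp, was at 113, 115, 111 and 89.3 CPM in WT-NT and at 78.7, 74.9 and 79.5 CPM in WT-GS. The groups did not overlap, and the log2 change was -0.41 ± 0.11 (SE, adjusted p = 0.0295). The clamp loader subunit Rfc2 changed by -0.53 ± 0.15 (SE, adjusted p = 0.0302), while Rfc3, Rfc4 and Rfc5 passed without WT-NT 4, at -0.56 ± 0.12 (SE, adjusted p = 0.00898), -0.38 ± 0.12 (SE, adjusted p = 0.0416) and -0.60 ± 0.10 (SE, adjusted p = 0.00354). Rfc1, the large subunit, was at 82.9, 77.4, 80.2 and 76.7 CPM in WT-NT and at 70.3, 67.3 and 70.4 CPM in WT-GS. It did not overlap between the groups, yet its small change of -0.13 ± 0.07 (SE, adjusted p = 0.184) did not pass the test.

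Of the RPA subunits, Rpa1 passed the test, and differences between the subunits were not tested. Rpa1, the large subunit, was at 124, 123, 79.2 and 80.9 CPM in WT-NT 1 to 4 and at 58.8, 62.6 and 58.7 CPM in WT-GS 1 to 3. The WT-NT libraries fell into a higher pair and a lower pair, all above WT-GS, and the log2 change was -0.70 ± 0.20 (SE, adjusted p = 0.0295). Rpa2 was at 24.6, 26.1, 23.1 and 21.3 CPM in WT-NT and at 20.4, 23.8 and 23.5 CPM in WT-GS, a change of -0.02 ± 0.12 (SE, adjusted p = 0.925). Rpa3 was at 12.9 ± 1.39 CPM (SD, n = 4) and 12.9 ± 0.0920 CPM (SD, n = 3), a change of 0.06 ± 0.12 (SE, adjusted p = 0.742). The signs of Rpa2 and Rpa3 turned when single libraries were left out, so no direction is given for either.

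Both genes of lagging-strand processing fell. Lig1, the ligase that joins Okazaki fragments, was at 59.3, 61.7, 59.1 and 35.0 CPM in WT-NT and at 29.7, 28.7 and 31.6 CPM in WT-GS. WT-NT 4 was the only WT-NT library near the WT-GS range, and the change was -0.79 ± 0.21 (SE, adjusted p = 0.0236). Fen1, the flap endonuclease that trims the fragments, was at 35.0, 34.3, 36.5 and 25.7 CPM in WT-NT and at 20.9, 21.1 and 21.2 CPM in WT-GS. The 3 WT-GS values of Fen1 lay close together, and the change was -0.59 ± 0.14 (SE, adjusted p = 0.0167).

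Of the 5 genes of nucleotide supply, Tyms, Tk1 and Rrm1 fell. Tyms, thymidylate synthase, was at 51.5, 54.0, 48.6 and 39.0 CPM in WT-NT and at 20.2, 22.4 and 22.8 CPM in WT-GS. The log2 change was -1.09 ± 0.14 (SE, adjusted p = 0.00139), and this was the smallest adjusted p among the 48 genes. In Tyms, unlike Mcm5, WT-NT 4 lay nearer to its own group. Rrm1 and Rrm2 encode the large and small subunit of ribonucleotide reductase, which makes deoxyribonucleotides. Rrm1 was at 253, 220.3, 236 and 199 CPM in WT-NT and at 135, 162 and 152 CPM in WT-GS, a change of -0.54 ± 0.12 (SE, adjusted p = 0.0113), with no overlap. Rrm2 was at 109, 107, 97.3 and 119.7 CPM in WT-NT and at 88.8, 131 and 114 CPM in WT-GS, with the WT-GS values on both sides of the WT-NT values, and its change was 0.10 ± 0.14 (SE, adjusted p = 0.602). The difference between Rrm1 and Rrm2 was not itself tested. Tk1, thymidine kinase, changed by -0.67 ± 0.21 (SE, adjusted p = 0.0452). Dut, which removes dUTP, changed by -0.16 ± 0.19 (SE, adjusted p = 0.535) with all libraries and by -0.33 ± 0.08 (SE, adjusted p = 0.0152) without WT-NT 4.

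Among the 4 regulators of entry into S phase, Ccne1 fell. Ccne1 encodes cyclin E1, a partner of Cdk2, and was at 43.2, 42.4, 36.1 and 40.3 CPM in WT-NT and at 27.2, 26.5 and 28.8 CPM in WT-GS. WT-NT 4 lay inside its own group here, and the change was -0.50 ± 0.10 (SE, adjusted p = 0.00743). Ccne2, cyclin E2, was at 16.8, 11.3, 13.66 and 13.4 CPM in WT-NT and at 15.8, 18.7 and 17.4 CPM in WT-GS, overlapping in 1 WT-NT library, and its change of 0.39 ± 0.15 (SE, adjusted p = 0.078) did not pass. E2f1, a transcription factor of the replication programme, was at 44.9, 45.6, 39.3 and 40.5 CPM in WT-NT and at 42.3, 46.3 and 42.2 CPM in WT-GS, with ranges that overlapped and a change of 0.09 ± 0.10 (SE, adjusted p = 0.486). E2f2 was at 5.95, 2.56, 8.51 and 3.30 CPM in WT-NT and at 2.16, 1.96 and 2.55 CPM in WT-GS. Its change of -1.13 ± 0.42 (SE, adjusted p = 0.0738) was the most negative of the 48, but the WT-NT values were widely spread, with WT-NT 2 near the WT-GS range, and it did not pass the test. E2f2 was called lower in 5 of the 18 settings tried, the fit without WT-NT 4 among them.

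The chromatin genes Uhrf1 and Chaf1a fell. Uhrf1, which brings the maintenance DNA methyltransferase to hemimethylated DNA behind the fork, was at 92.8, 93.1, 83.0 and 49.2 CPM in WT-NT and at 34.6, 36.9 and 41.0 CPM in WT-GS. The change was -1.03 ± 0.23 (SE, adjusted p = 0.0136), and WT-NT 4 again lay nearest to WT-GS. Chaf1a, the large subunit of the histone chaperone CAF-1, was at 59.8, 54.2, 51.6 and 37.7 CPM in WT-NT and at 25.4, 28.6 and 28.7 CPM in WT-GS, a change of -0.83 ± 0.17 (SE, adjusted p = 0.00909). Chaf1b changed by -0.31 ± 0.18 (SE, adjusted p = 0.223) with all libraries and by -0.45 ± 0.14 (SE, adjusted p = 0.0351) without WT-NT 4.

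**Figure D3:**
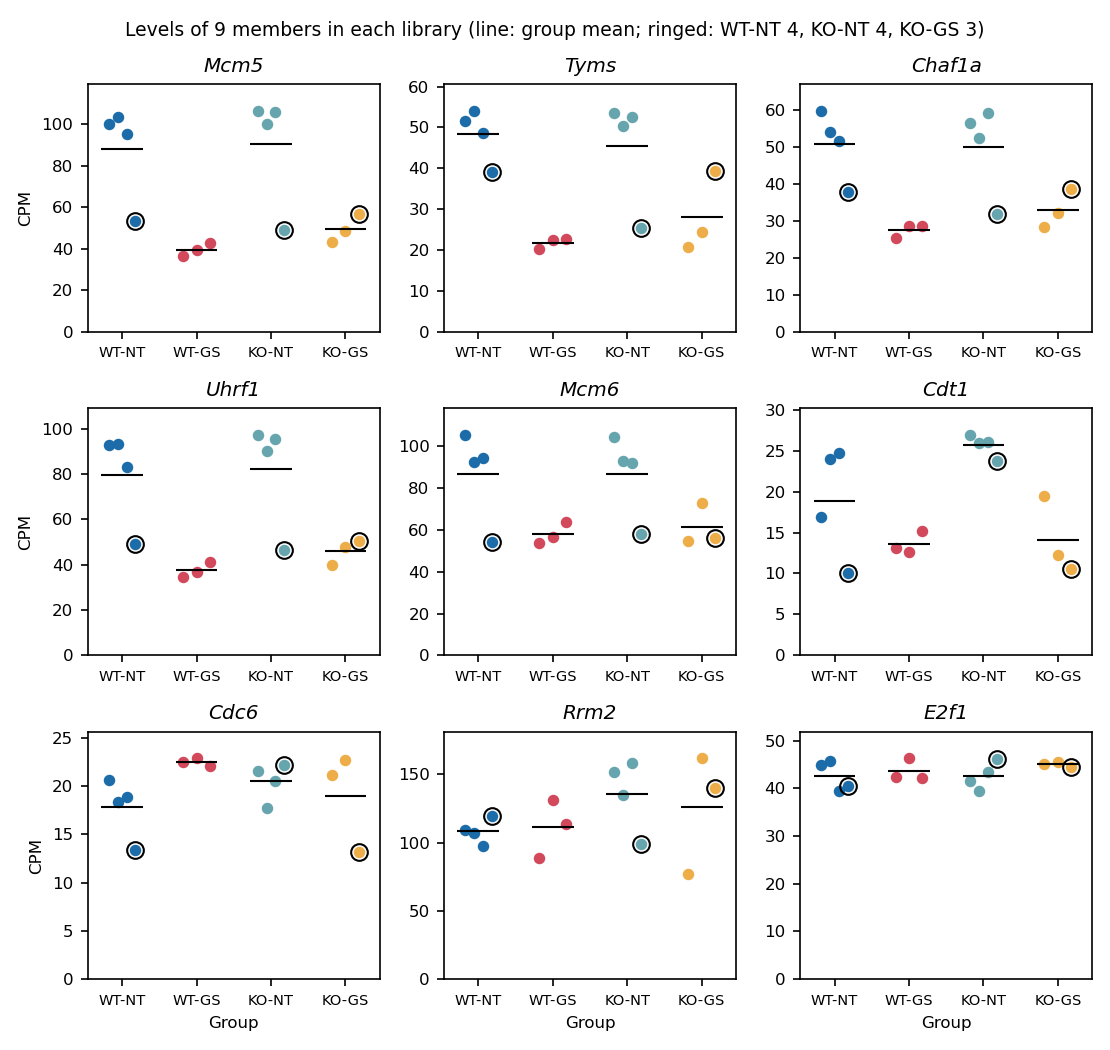
CPM (vertical axis, from 0) of 9 of the genes in each library by group, with the group mean as a line and the libraries WT-NT 4, KO-NT 4 and KO-GS 3 ringed. In Mcm5 and Uhrf1 the ringed WT-NT 4 lies below the other 3 WT-NT libraries and above WT-GS, in Cdt1 it is below WT-GS, and Rrm2 and E2f1 show no separation of the media in wild type.

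WT-NT 4 and the library labelled KO-GS 3 had low replication genes with only part of the rest of the starvation pattern. Along the starvation genes they lay at 0.105 and 0.152. The mean of log2(CPM + 1) over the 48 genes, relative to the WT-NT mean, was 0.149, 0.134, 0.0599 and -0.343 in the libraries WT-NT 1 to 4. In WT-GS 1 to 3 it was -0.478, -0.416 and -0.364. In KO-NT 1 to 4 it was 0.196, 0.0768, 0.127 and -0.283, and in KO-GS 1 to 3 it was -0.399, -0.259 and -0.305. WT-NT 4 was thus close to WT-GS by these genes, and it lay at 0.105 along the starvation genes. The starvation genes were called with WT-NT 4 counted in the WT-NT group, which favours genes in which it lay away from WT-GS. The 48 were not chosen in that way, so its position and its mean over the 48 cannot be set against each other. Over the 30 genes of the G2 and M phase list the same mean was -0.233 in WT-NT 4 and -0.154 in the library labelled KO-GS 3. It was -1.47, -1.11 and -1.25 in the WT-GS libraries, -1.22 in the library labelled KO-NT 4 and -1.43 and -0.879 in KO-GS 1 and 2. These group values are descriptions, and the libraries were singled out after their values were seen.

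**Figure D4:**
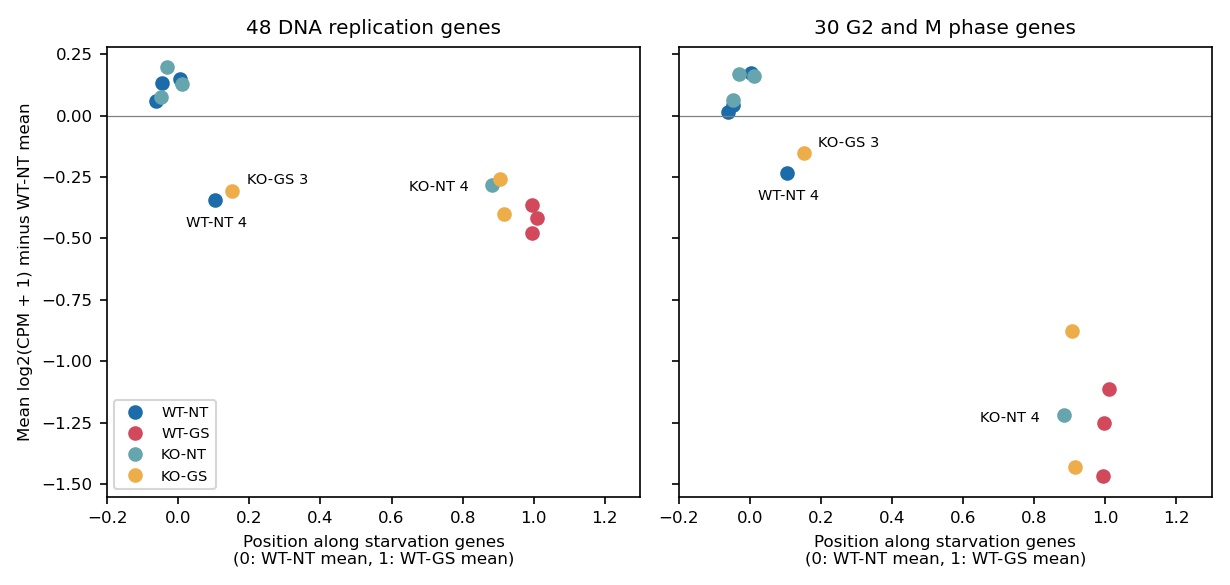
Mean log2(CPM + 1) minus the WT-NT mean (vertical axis) against the position along the starvation genes (horizontal axis) for the 14 libraries, over the 48 replication genes (left) and the 30 genes of the G2 and M phase list (right). On the left WT-NT 4 and the library labelled KO-GS 3 lie at -0.343 and -0.305, between KO-GS 1 at -0.399 and KO-GS 2 at -0.259; on the right they lie at -0.233 and -0.154, well above both.

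The genes were also counted one by one. Of the 40 replication genes that lay lower in every WT-GS library than in WT-NT 1 to 3, 19 were in WT-NT 4 at or below the highest WT-GS value, or 47.5%. Over all genes tested that lay lower in this way, 864 of 4742 were, or 18.2%, and 0 of the 30 on the G2 and M phase list were. In the library labelled KO-GS 3 it was again 19 of 40, against 20.6% of the 4742 genes and 0 of the 30. In the library labelled KO-NT 4 it was 11 of 40, or 27.5%, against 46.2% of the 4742 genes and 24 of the 30, and in KO-GS 2 also 11 of 40, against 61.4% of the 4742 genes and 0 of the 30. KO-GS 1 had 25 of 40, or 62.5%, against 49.6%. The highest WT-GS value lay farther down for the G2 and M phase genes, which changed more, so a partial drop may not reach it. Of those 30 genes, 20 in WT-NT 4 and 17 in the library labelled KO-GS 3 lay below all of WT-NT 1 to 3. So did 40 and 41 of the 48 replication genes, and 28.9% and 31.3% of all genes tested. By another measure, a level below the midpoint between the means of WT-NT 1 to 3 and of WT-GS, the counts were closer together: 36 of 40 in WT-NT 4, 36 in the library labelled KO-NT 4 and 33 in the library labelled KO-GS 3, against 42.9%, 79.8% and 47% of the 4742 genes. By the midpoint KO-GS 1 had 37 of the 40, or 92.5%, and KO-GS 2 had 34, or 85%, against 82.1% and 89.2% of the 4742 genes. Of the 30 genes on the G2 and M phase list, 4 lay below the midpoint in WT-NT 4. In the library labelled KO-GS 3 it was 3 of the 30, and in the library labelled KO-NT 4 all 30. KO-GS 1 had 30 and KO-GS 2 had 28 of these 30. The 19 genes at or below the highest WT-GS value in WT-NT 4 were Orc6, Cdt1, Gmnn, Mcm6 and Mcm7 of licensing, Mcm10, Cdc45, Gins1 and Gins2 of helicase activation, Prim1, Prim2, Pold1, Pold2, Pole and Pole2, and Rfc4, Rfc5, Dut and Chaf1b. Of these, 17 were also among the 19 of the library labelled KO-GS 3.

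The drop in these libraries differed by gene. Relative to the mean of WT-NT 1 to 3, Cdt1 was at 45.8% in WT-NT 4, at 48.2% in the library labelled KO-GS 3 and at 62.4% in the mean of WT-GS. Tyms was at 76%, 76.5% and 42.4% in the same order, and Ccne1 at 99.3%, 92.9% and 67.8%. Mcm5 was at 53.5%, 56.8% and 39.7%. Cdc6 was low in both of these libraries, at 69% and 68.3%, and stood at 116% in WT-GS. The library labelled KO-NT 4 had Tyms at 49.2% and Cdt1 at 109%. What sets WT-NT 4 apart was not tested. Its total count was 89923476, the second highest of the 14, and its summed fibroblast and macrophage markers, 50660 and 667 CPM, lay within the ranges of WT-NT 1 to 3. It lay outside them in neural markers, at 179 CPM against 81.1 to 137 CPM, in endothelial markers, at 111 CPM against 80.4 to 85.2 CPM, in muscle markers, at 84.4 CPM against 94.3 to 144.6 CPM, and in Hspa5, at 1065 CPM against 1449 to 1479 CPM.

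In SirT7-/- cells the comparison asks the same question in the absence of the sirtuin. As labelled, KO-GS against KO-NT called 0 of the 48 genes and 0% of all genes tested. At an unadjusted p under 0.05 there were 25 of the 48, all lower, and 2267 of all genes. DESeq2 called 6 of the 48, all lower, among 626 genes (2.85% of all genes were called lower), and limma-voom called 0 genes. The median log2 change of the 48 was -0.37, with 46 negative. Mcm5 was at 106, 100.4, 106 and 48.9 CPM in KO-NT 1 to 4 and at 43.3, 48.6 and 56.6 CPM in KO-GS 1 to 3, where the library labelled KO-NT 4 lay inside the range of KO-GS. Its log2 change was -0.89 ± 0.29 (SE, adjusted p = 0.319). Tyms was at 53.5, 50.3, 52.5 and 25.3 CPM in KO-NT and at 20.6, 24.4 and 39.3 CPM in KO-GS, so that here both libraries stood apart from their groups, and its change was -0.71 ± 0.33 (SE, adjusted p = 0.371). In 11 of the 48 every KO-GS library lay below every KO-NT library, or 22.9%, against 6.45% of all genes tested, and in 0 every KO-GS library lay above, against 5.94%. Among the 11 was Pold1, at 31.6, 34.6, 35.2 and 23.8 CPM in KO-NT and 17.8, 14.9 and 14.3 CPM in KO-GS.

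Leaving out both of these libraries, KO-NT 4 and KO-GS 3 by label, in a fit on the other 12 libraries, 16 of the 48 were called lower in KO-GS and 0 higher. That is 33.3%, where 14.7% of all genes tested were called lower and 33.6% either way. The median log2 change was -0.46, against 0.03 over all genes tested. Tyms fell by 1.21 ± 0.15 (SE, adjusted p = 0.000323), Mcm5 changed by -1.18 ± 0.25 (SE, adjusted p = 0.00463), Uhrf1 by -1.11 ± 0.25 (SE, adjusted p = 0.00645), Lig1 by -0.91 ± 0.22 (SE, adjusted p = 0.00905) and Chaf1a by -0.89 ± 0.18 (SE, adjusted p = 0.00411). Pold1 changed by -1.05 ± 0.29 (SE, adjusted p = 0.0186), and it was also called lower in wild type in this fit. In a fit on the 5 other SirT7-/- libraries alone 33 of the 48 were called lower, with 18.3% of all genes called lower. Leaving out KO-NT 4 alone gave 24, with 2095 of all genes tested called in either direction. Leaving out any other single library of these groups gave 0, with 0 to 2 of all genes called, so those fits called almost nothing anywhere. In 37 of the 48 both remaining KO-GS libraries lay below KO-NT 1 to 3, or 77.1%, against 30.2% of all genes tested. E2f1 lay above in both, at 45.2 and 45.5 CPM against 41.6, 39.5 and 43.4 CPM, without passing the test. It was the 1 gene of the 48 to do so, or 2.08%, against 33.8% of all genes tested.

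With these libraries left out, the responses of the 2 genotypes were set side by side, both from the fit on 12 libraries. In it 20 of the 48 were called lower in wild type, where 19.5% of all genes were, and 16 in SirT7-/- cells, and 15 were called in both. The 20 were the 17 named above with Pold1, Rfc3 and Rfc5, and Cdc6 was called higher in wild type, as were 20.7% of all genes. Pola2, Rfc3, Rfc5, Rpa1 and Ccne1 passed in wild type and not in SirT7-/- cells, and Chaf1b the other way round, but the test of the difference called none of them. That difference was 0.17 ± 0.16 (SE, adjusted p = 1) for Pola2 and -0.26 ± 0.25 (SE, adjusted p = 1) for Chaf1b. The sign of the change was shared by 45 of the 48. Across the 48 genes, which are not independent replicates, the changes had a Pearson r of 0.838 and a Spearman rho of 0.803. The groups share no library, but both sets of values come from 1 fit with a shared estimate of the spread. Leaving out WT-NT 4 as well, 38 of the 48 were called lower in wild type and 33 in SirT7-/- cells, against 24.2% and 19.6% of all genes.

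**Figure D5:**
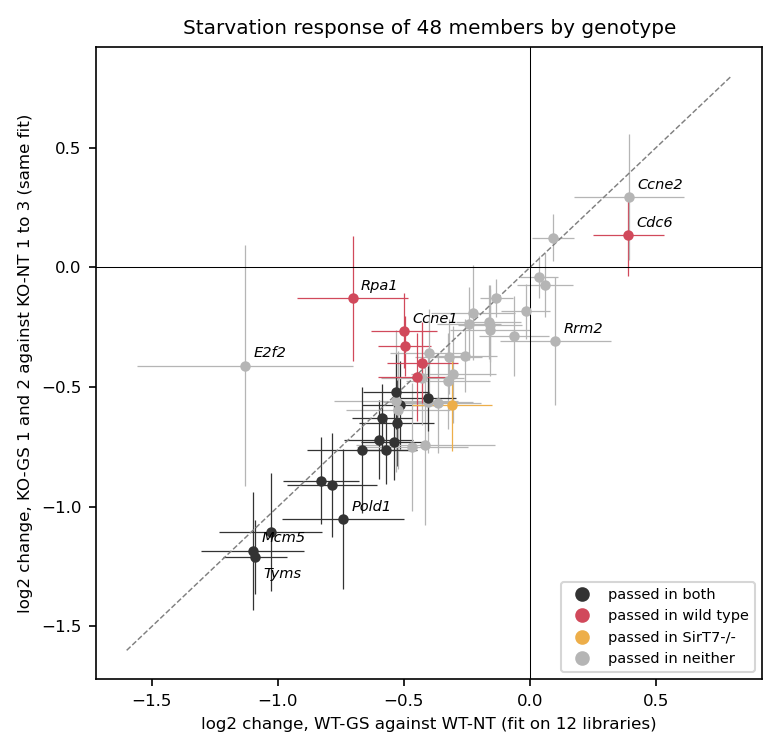
Log2 change without glucose in SirT7-/- cells (KO-GS 1 and 2 against KO-NT 1 to 3, vertical axis) against that in wild type (horizontal axis) for the 48 genes, both from the fit on 12 libraries, with 1 SE bars and the line of equal change dashed. The 15 genes called in both are dark; Rpa1 and E2f2 lie farthest from it, with wide bars.

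The difference between the genotypes in the response was tested in a fit on all 14 libraries as labelled. It called 0 of the 48 and 0% of all genes tested, with a smallest adjusted p of 0.680. At an unadjusted p under 0.05 there was 1 of the 48, Rpa1, and 950 of all genes, while DESeq2 called 5 genes and none of the 48. The difference for Rpa1 was 0.67 ± 0.31 (SE, adjusted p = 0.68). Rpa1 was at 81.4, 77.5, 84.5 and 59.6 CPM in KO-NT 1 to 4, of which the first 3 lay near the lower pair of WT-NT libraries, and in KO-GS at 53.6, 94.3 and 75.2 CPM. Ccne1 differed by 0.42 ± 0.22 (SE, adjusted p = 0.68). For the strongly responding genes the SEs were wide: Mcm5 differed by 0.22 ± 0.39 (SE, adjusted p = 0.862), Tyms by 0.39 ± 0.37 (SE, adjusted p = 0.738) and Uhrf1 by 0.18 ± 0.37 (SE, adjusted p = 0.882). With both libraries left out, again 0 of the 48 and 0% of all genes passed. These values do not show that the genotypes respond alike.

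Loss of SirT7 itself was then compared in each medium. In normal medium, KO-NT against WT-NT called 0 of the 48 genes and 1 of all genes tested, Sirt7, or 0.00638%. At an unadjusted p under 0.05 there was 1 of the 48, Rrm2, and 590 of all genes, and DESeq2 called 52 genes and none of the 48. Rrm2 was at 152, 135, 158 and 99.0 CPM in KO-NT 1 to 4, against 109, 107, 97.3 and 119.7 CPM in WT-NT 1 to 4. KO-NT 1 to 3 lay above every WT-NT library and the library labelled KO-NT 4 did not, and the log2 change was 0.35 ± 0.15 (SE, adjusted p = 1). Cdt1 was at 26.9, 26.0, 26.1 and 23.8 CPM in KO-NT, where all but KO-NT 4 lay above the highest WT-NT library, and its change was 0.46 ± 0.26 (SE, adjusted p = 1). The median change of the 48 was 0.03 as labelled. With KO-NT 4 and KO-GS 3 left out, 0 of the 48 and 4 of all genes tested were called. In none of the 48 did the 2 groups separate completely, where 2.21% of all genes tested lay lower and 1.07% higher in every KO-NT library.

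Without glucose, KO-GS against WT-GS also called 0 of the 48 and 1 of all genes, Sirt7, or 0.00638%. At an unadjusted p under 0.05 there were 0 of the 48 and 526 of all genes, and DESeq2 called 14 genes and none of the 48. In 6 of the 48, Mcm5, Pola2, Pole2, Rfc1, Fen1 and Lig1, every KO-GS library lay above every WT-GS library, or 12.5%, against 7.18% of all genes tested. In 1, Rpa3, every KO-GS library lay below, or 2.08%, against 3.63%. Mcm5 was at 43.3, 48.6 and 56.6 CPM in KO-GS and 36.7, 39.4 and 42.6 CPM in WT-GS, a log2 change of 0.28 ± 0.13 (SE, adjusted p = 0.811). With KO-NT 4 and KO-GS 3 left out, the change of Mcm5 was 0.18 ± 0.24 (SE), and again 0 of the 48 were called. Lig1 was at 32.8, 36.3 and 34.0 CPM in KO-GS and 29.7, 28.7 and 31.6 CPM in WT-GS. The library labelled KO-GS 3 was the highest of its group in Mcm5, Fen1 and Rfc1. It was the lowest in Pola2 and Pole2 and lay between the others in Lig1.

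Other genes of replication and the cell cycle, from lists written with earlier results of these data known, were counted beside the 15.4% of all genes called lower and 17.2% called higher in WT-GS. Of 36 other origin and fork genes, 6 fell, or 16.7%, and 4 rose, near or below those shares. Top2a, the topoisomerase of dividing cells, fell: its mean was 279.6 ± 38.4 CPM (SD, n = 4) in WT-NT and 159.9 ± 14.9 CPM (SD, n = 3) in WT-GS, a change of -0.75 ± 0.13 (SE, adjusted p = 0.00551). Orc4 and Orc2, subunits of the origin recognition complex with Orc1, rose: Orc4 averaged 53.8 ± 4.48 CPM (SD, n = 4) in WT-NT and 83.6 ± 0.892 CPM (SD, n = 3) in WT-GS, a change of 0.70 ± 0.08 (SE, adjusted p = 0.00075), and Orc2 changed by 0.51 ± 0.10 (SE, adjusted p = 0.00912). Pold4, the small subunit of polymerase delta, also rose, by 0.70 ± 0.13 (SE, adjusted p = 0.00683). Subunits of 1 complex thus moved in opposite directions, Orc1 down and Orc2 and Orc4 up. In SirT7-/- cells, leaving out the same 2 libraries, 5 of the 36 fell and 4 rose, where 14.7% of all genes were called lower and 18.9% higher, and Orc4 changed by 0.65 ± 0.08 (SE, adjusted p = 0.000248).

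Of 24 other genes of nucleotide supply, 2 fell, or 8.33%, and 7 rose in WT-GS, against the same 15.4% and 17.2% of all genes. Samhd1, which breaks down deoxyribonucleotides, fell by 1.004 ± 0.12 (SE, adjusted p = 0.00114). Impdh2, the enzyme of guanine nucleotide synthesis, rose by 0.84 ± 0.15 (SE, adjusted p = 0.00583) and Tk2, the mitochondrial thymidine kinase, by 0.51 ± 0.10 (SE, adjusted p = 0.00758), whereas Tk1 fell. Of 14 other genes of chromatin replication, 4 fell, or 28.6%, and 0 rose. They were the DNA methyltransferase Dnmt1, which changed by -0.78 ± 0.15 (SE, adjusted p = 0.00758), and the histone chaperones Nasp, Asf1b and Rbbp7, of which Nasp changed by -1.08 ± 0.22 (SE, adjusted p = 0.00955). Of 20 genes of the fork stress response, 2 fell and 2 rose, or 10% each way, below the shares over all genes, with Atr, the kinase of stalled forks, at 0.67 ± 0.12 (SE, adjusted p = 0.00496) and Wee1, which restrains Cdk activity, at -0.54 ± 0.10 (SE, adjusted p = 0.00764).

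Of 36 regulators of the E2F and RB pathway, 9 fell, or 25%, and 4 rose, against 15.4% and 17.2% of all genes. Ccna2, cyclin A2, changed by -1.08 ± 0.14 (SE, adjusted p = 0.00159), Ccnd3, cyclin D3, by -0.81 ± 0.09 (SE, adjusted p = 0.000983) and Cdkn2c, an inhibitor of the G1 kinases, by -0.93 ± 0.12 (SE, adjusted p = 0.00161), while Lin52, a subunit of the DREAM complex, rose by 1.09 ± 0.10 (SE, adjusted p = 0.000416). Of the 30 G2 and M phase genes, 29 fell and 0 rose, and their median log2 change was -1.19, against -0.42 for the 48 replication genes. Plk1, a mitotic kinase, averaged 47.1 ± 10.4 CPM (SD, n = 4) in WT-NT and 7.45 ± 1.52 CPM (SD, n = 3) in WT-GS, a change of -2.61 ± 0.25 (SE, adjusted p = 0.000464), and Ccnb1, cyclin B1, changed by -1.53 ± 0.14 (SE, adjusted p = 0.000425). In SirT7-/- cells without the 2 libraries, 28 of the 30 fell and 0 rose. The count of 29 was the same without WT-NT 4, but 29 of 30 leaves almost no room to rise. It therefore cannot be set against the replication count, which went from 17 to 36. The share of all genes called lower went from 15.4% to 21.2%.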

How the data were processed

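RNA of 14 libraries of mouse embryonic fibroblasts was measured by RNA-seq of total RNA, prepared with the Illumina TruSeq RNA kit v2 per the labels' protocols. Per the submitters' processing notes, the tools were StringTie 1.3.3, HISAT2 2.1.0, Trimmomatic 0.36, FastQC 0.11.3, DESeq2 1.18.1 and SAMtools, with build mm9. The annotation, read length and strand setting are not given in the sources used here. The notes give no role or order for them. The authors deposited estimated counts per gene as whole numbers, whose totals differ between libraries and which carry no normalization. The table has 24015 rows, of which 27 carry a date in place of a symbol and 4225 were 0 in all libraries.

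The counts were fitted with edgeR 4.0.16 (R 4.3.3) by the robust quasi-likelihood F-test with TMM normalization, after filterByExpr over all 14 libraries (minimum count 10, minimum total 15). Each comparison of 2 groups used the libraries of those groups alone, and the difference between genotypes used all 14. P-values were adjusted by Benjamini-Hochberg over all 15666 genes tested, and a gene was called under 0.05. The SE is the log2 change divided by the root of its F value. Totals of 59788270 to 91607861 counts mean that 1 count was at most 0.0167 CPM, and the lowest count of any of the 48 genes in any library was 117. The scripts were tested on simulated data with known changes.

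The named genes are the 48, Sirt7, Hspa5 and Txnip, and up to 4 genes of each other list with the smallest p in WT-GS against WT-NT, plus up to 2 with the smallest p in another comparison. The genes, lists, tests and libraries singled out were chosen with earlier results of these data known. Alternatives were limma-voom (limma 3.58.1), DESeq2 1.42.0, scaling by library size alone or by RLE, a filter left out or made stricter (at least 1 CPM throughout a group, with a mean count of 50), all 14 libraries in one fit, replicate number as a block, leaving out KO-NT 4 and KO-GS 3, and leaving out each library in turn. Leaving out these and WT-NT 4, and fitting the 5 other SirT7-/- libraries alone, were added after seeing the data.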

Additional observations from a re-analysis of the deposited data

Results flagged for a closer look

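In the groups of 4 libraries, the lowest or highest value was set against the gap to its nearest neighbour by Dixon's criterion at 95%, for each of the 48 genes in WT-NT and KO-NT. Of 96 such groups 12 were marked, where chance marks about 1 in 20, and in all 12 the library that stood apart was WT-NT 4 or the library labelled KO-NT 4, as the lowest of its group. The 48 genes share these libraries and are not independent.

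WT-NT 4 stood apart in 5 genes. Mcm3 was at 68.5 CPM there, with the next library at 98.1 CPM, and Mcm5 at 53.3 CPM, with the next at 95.3 CPM. Gins1 was at 3.78 CPM against a next value of 7.51 CPM, Pcna at 89.3 against 111 CPM, and Lig1 at 35.0 against 59.1 CPM.

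The library labelled KO-NT 4 stood apart in 7 genes. Mcm4 was at 58.5 CPM, with the next library at 102 CPM, and Mcm5 at 48.9 against 100.4 CPM. Rfc2 was at 30.5 against 41.6 CPM, Rfc5 at 18.6 against 25.1 CPM, Tyms at 25.3 against 50.3 CPM, Rrm1 at 145 against 249.9 CPM, and Uhrf1 at 46.3 against 90.3 CPM. Mcm5 was the gene marked in both libraries. No cause was tested for either library.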

How the results depend on the processing

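In WT-GS against WT-NT the count of replication genes called lower, 17, was 30 with replicate number as a block, 38 without KO-NT 4, KO-GS 3 and WT-NT 4, and 3 to 36 when single libraries were left out. It lay between 14 and 22 under DESeq2, limma-voom, both other normalizations, both filters and the fit on all 14 libraries. The count called higher, 0, was 1 without KO-NT 4 and KO-GS 3 (Cdc6) and 0 to 1 with single libraries left out (Ccne2, without WT-NT 1). All genes called, 5107, ranged from 2790 to 6643 with single libraries left out. In KO-GS against KO-NT all genes called, 0, became 626 with DESeq2, 5260 without KO-NT 4 and KO-GS 3, 6302 without these and WT-NT 4, 6011 in the 5 other SirT7-/- libraries, and 0 to 2095 with single libraries left out. Replication genes called lower became 6, 16, 33, 33 and 0 to 24 in the same order. In KO-NT against WT-NT all genes called, 1, became 52 with DESeq2, 0 with the block, 4 without KO-NT 4 and KO-GS 3, 5 without these and WT-NT 4, and 0 to 5 with single libraries left out. In KO-GS against WT-GS, 1 became 14 with DESeq2, 0 with the block, 2 without the 3 libraries and 0 to 4 with single libraries left out. For the difference between genotypes, 0 became 5 with DESeq2, 1 without the 3 libraries and 0 to 1 with single libraries left out. None of the 48 was called in these last 3 comparisons under any alternative. Some changes that were not called turned in sign: in wild type Cdc45 ranged from -0.21 to 0.016 with single libraries left out, Gins4 from -0.019 to 0.089, Rpa2 from -0.10 to 0.041, Rpa3 from -0.024 to 0.11 and Rrm2 from -0.042 to 0.22. Gins4 was -0.023 with library size alone and -0.010 without the 3 libraries, where Rpa3 was -0.024. In SirT7-/- cells Cdc6 ranged from -0.28 to 0.082, Rpa1 from -0.26 to 0.16, Rrm2 from -0.35 to 0.15, Ccne1 from -0.20 to 0.094, Ccne2 from -0.17 to 0.41 and E2f2 from -0.39 to 0.063. Cdc6 was 0.14 without KO-NT 4 and KO-GS 3, 0.10 without the 3 libraries and 0.12 in the 5 other SirT7-/- libraries. The cause of these shifts was not tested. Replicate numbers do not pair the libraries by the labels, and the deviations of same-numbered libraries correlated at -0.076, 0.24 and 0.25 in wild type and -0.21, -0.19 and 0.39 in SirT7-/- cells; 2 of 3 WT-GS libraries and 0 of 3 KO-GS libraries correlated best with their own number. The block takes WT-NT 4, which has no partner in WT-GS, out of that comparison.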
